A study of Mus musculus with 19 samples.

Results

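The 9 enzymes that turn squalene into cholesterol were followed in the brains of mice carrying an SCA3 transgene and of wild-type mice, each given the drug CCI-779 or a placebo. The genes were Sqle, Lss, Cyp51, Msmo1, Nsdhl, Hsd17b7, Ebp, Sc5d and Dhcr7, taken as every probe set whose single gene symbol in the array's annotation was one of these names. That gave 19 probe sets for 9 genes, of 45037 probe sets that are no controls. Of the 19, 12 averaged a log2 intensity of 4 or more on the 19 arrays and were tested, and each of the 9 genes kept at least 1. They were tested among 20473 probe sets and 10454 genes. Where a gene had several tested probe sets, the brightest stands for it.

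The study measured total RNA from snap-frozen brains of male mice on 19 Affymetrix arrays. SCA3, spinocerebellar ataxia type 3, is a neurodegenerative disease caused by an expanded glutamine repeat in ataxin-3, and CCI-779 (temsirolimus) is an inhibitor of the kinase mTOR derived from rapamycin. There were 5 arrays of SCA3 transgenic mice given CCI-779, 5 of SCA3 transgenic mice given placebo, 5 of wild-type (wt) mice given CCI-779 and 4 of wt mice given placebo. Intraperitoneal CCI-779 was given at 20 mg per kg 3 times a week, starting at 5 weeks of age and going on for 6 weeks, and placebo was injected equally often. The sources used here do not name the promoter that drives the transgene. Whether every array stands for its own mouse is not said in the labels, and p-values reflect only how much the arrays of a group differ, and that spread may be technical. In whole brain RNA, fewer cells of a type and less RNA per cell cannot be told apart.

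Cholesterol synthesis starts from acetyl-CoA, runs through mevalonate to squalene, and from there through lanosterol and a chain of demethylations, isomerisations and reductions to cholesterol. The brain makes nearly all of its own cholesterol, because lipoproteins of the blood do not cross the blood-brain barrier, and oligodendrocytes building myelin and astrocytes are major producers. The genes of the pathway are switched on together by the transcription factor SREBP2, which is released from the endoplasmic reticulum when sterols are low.

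Stretches before the start sites are shown for Cyp51, Msmo1 and Nsdhl, whose enzymes act close together in the demethylation of lanosterol and whose levels varied together from array to array. NF-Y, a factor that binds next to SREBP2 at many sterol genes, recognises the box CCAAT. The sequences are the 250 bases before the RefSeq start site in build GRCm38.p6, written 5′ to 3′ on the gene's strand, with each CCAAT box of either strand in capitals. The Cyp51 stretch is chr5:4104698-4104947 on the minus strand, that of Msmo1 is chr8:64733579-64733828 on the minus strand, and that of Nsdhl is chrX:72918271-72918520 on the plus strand.
Cyp51: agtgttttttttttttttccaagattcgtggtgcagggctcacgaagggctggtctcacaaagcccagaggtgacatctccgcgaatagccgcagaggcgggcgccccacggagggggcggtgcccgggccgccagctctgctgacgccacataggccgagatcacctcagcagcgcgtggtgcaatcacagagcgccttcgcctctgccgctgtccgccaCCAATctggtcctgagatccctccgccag
Msmo1: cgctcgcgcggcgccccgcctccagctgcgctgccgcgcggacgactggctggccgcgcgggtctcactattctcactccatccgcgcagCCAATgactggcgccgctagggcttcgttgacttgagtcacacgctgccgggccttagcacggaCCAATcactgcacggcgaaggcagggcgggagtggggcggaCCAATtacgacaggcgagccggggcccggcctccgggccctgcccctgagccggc
Nsdhl: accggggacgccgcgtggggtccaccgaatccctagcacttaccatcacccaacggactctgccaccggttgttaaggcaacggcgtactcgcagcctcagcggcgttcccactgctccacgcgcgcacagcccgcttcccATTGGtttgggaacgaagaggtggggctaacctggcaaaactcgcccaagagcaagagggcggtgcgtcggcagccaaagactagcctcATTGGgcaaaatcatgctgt
A RefSeq promoter window, 250 bases before to 50 bases after the start site, was found for 8 of the 9 genes. CCAAT was present on either strand in at least 1 window of all 8, against 41.1% of 27025 mouse genes. Msmo1 held 3 boxes, Nsdhl 4 over its whole window and Cyp51 1. The Sp1 box GGGCGG was likewise found in 8 of 8, against 38.2% of genes. The sterol regulatory element in the form TCACNCCAC was found in 0 of 8, against 1.44% of genes. A form this rare would seldom appear in 8 genes, and other forms of the element were not searched. Its absence therefore does not show that these genes lack the element. A match describes the letters of these windows and shows no binding.

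In SCA3 mice, 8 of the 9 enzymes were lower under CCI-779 than under placebo and 0 were higher. The 8 that fell were Sqle, Lss, Cyp51, Msmo1, Nsdhl, Hsd17b7, Sc5d and Dhcr7, and Ebp did not pass the test. The CCI-779 and placebo arrays also differed in the control transcripts added at hybridisation, and that step and the drug cannot be told apart. Over all 10454 genes, 6.09% fell and 11.0% rose in this comparison at the same threshold of an adjusted p under 0.05. The median log2 difference of the 9 enzymes was -0.58, against 0.00 over all genes, and the single values ran from -0.78 to -0.29. In 3 of the 9, every CCI-779 array lay below every placebo array, which was so for 4.34% of all genes. In wt mice, 1 of the 9 fell, Hsd17b7, and 0 rose, against 1.64% of all genes that fell and 11.5% that rose. There the median of the 9 was -0.22, against 0.08 over all genes, and all 9 differences were negative, as were 33.4% of all genes.

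**Figure D1:**
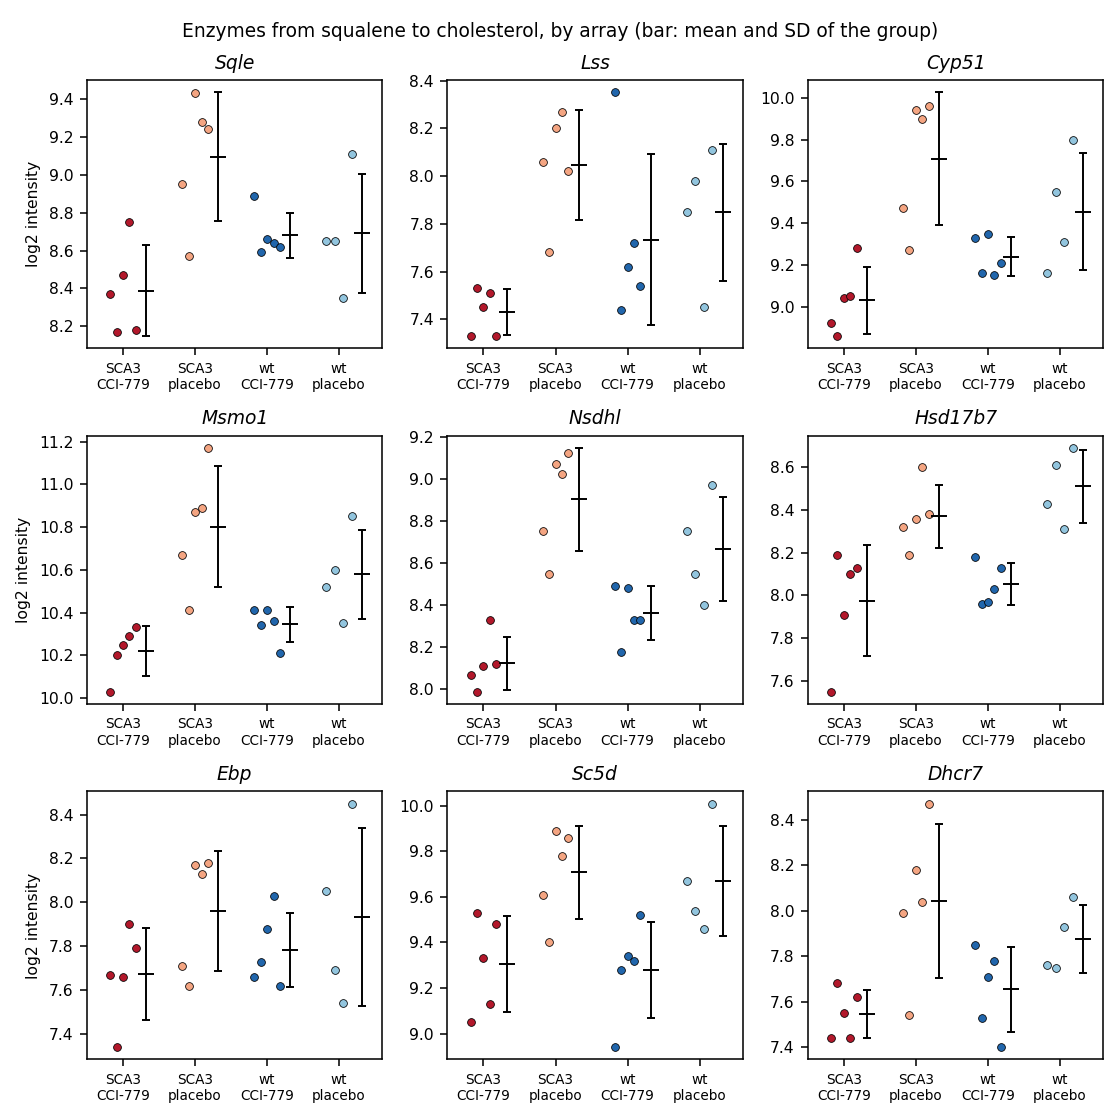
Log2 intensity of the 9 enzymes on each of the 19 arrays, by group (points, in replicate order), with the group mean and SD as a bar beside the points. The axes differ between panels and do not start at 0. All 9 enzymes had both placebo means above both CCI-779 means, and for Lss, Msmo1 and Nsdhl the SCA3 CCI-779 arrays lay wholly below the SCA3 placebo arrays.

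Sqle encodes squalene epoxidase, which oxidises squalene and is a controlled step of the pathway. Its log2 intensity was 8.37, 8.17, 8.47, 8.75 and 8.18 on the SCA3 CCI-779 arrays, against 8.95, 8.57, 9.43, 9.28 and 9.24 on the SCA3 placebo arrays. Only the highest CCI-779 array and the lowest placebo array crossed. The difference was -0.70 (SE 0.16, adjusted p = 0.00745), which is 1.63-fold lower under CCI-779. Wt mice had 8.89, 8.59, 8.66, 8.64 and 8.62 under CCI-779 and 8.65, 8.65, 8.35 and 9.11 under placebo, and the groups overlapped over most of their range. The wt difference was -0.01 (SE 0.17, adjusted p = 0.968), with a 95% interval of -0.37 to 0.34.

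Lss encodes lanosterol synthase, which closes the sterol rings. On the SCA3 arrays it stood at 7.33, 7.53, 7.45, 7.51 and 7.33 under CCI-779, against 8.06, 7.68, 8.20, 8.27 and 8.02 under placebo. The groups did not overlap, and the difference was -0.62 (SE 0.15, adjusted p = 0.0136), 1.53-fold lower. The wt arrays read 8.35, 7.44, 7.62, 7.72 and 7.54 under CCI-779, against 7.85, 7.98, 7.45 and 8.11 under placebo. The first of these CCI-779 arrays was above all 4 placebo arrays, and the wt difference was -0.11 (SE 0.16, adjusted p = 0.677) with it and -0.27 (adjusted p = 0.217) without it. A further probe set of Lss, much dimmer at a mean of 4.75, went another way: its difference was -0.07 (adjusted p = 0.757) in SCA3 and -0.52 (adjusted p = 0.0173) in wt. Within groups this probe set and the main one had r = -0.41 over 19 arrays. The genotype in which Lss was called differed between its probe sets. Neither passed for the interaction of genotype and drug (adjusted p = 0.642 for the main one and 0.627 for the dimmer one).

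Cyp51 encodes the cytochrome P450 that takes the first methyl group off lanosterol. SCA3 mice had 8.92, 8.86, 9.04, 9.05 and 9.28 under CCI-779, against 9.47, 9.27, 9.94, 9.90 and 9.96 under placebo. The groups met only at their edges, where the highest CCI-779 array and the lowest placebo array differed by less than the SD of either group. Cyp51 was 1.60-fold lower under CCI-779 in SCA3 mice, a difference of -0.68 (SE 0.14, adjusted p = 0.00399). In wt mice the values were 9.33, 9.16, 9.35, 9.15 and 9.21 under CCI-779 and 9.16, 9.55, 9.31 and 9.80 under placebo. They overlapped, with a difference of -0.22 (SE 0.15, adjusted p = 0.341). The other tested probe set of Cyp51 fell too in SCA3, by 0.92 (SE 0.28, adjusted p = 0.0345), and its wt difference was -0.46 (adjusted p = 0.319).

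Msmo1 encodes a methylsterol monooxygenase that oxidises the next methyl groups. Its values were 10.03, 10.20, 10.25, 10.29 and 10.33 in SCA3 mice given CCI-779, against 10.67, 10.41, 10.87, 10.89 and 11.17 in SCA3 mice given placebo. No CCI-779 array reached the lowest placebo array, and the difference was -0.58 (SE 0.12, adjusted p = 0.00339), 1.5-fold lower. The wt mice had 10.41, 10.34, 10.41, 10.36 and 10.21 under CCI-779, against 10.52, 10.60, 10.35 and 10.85 under placebo. One placebo array lay among the CCI-779 arrays, and the difference of -0.23 (SE 0.12, adjusted p = 0.217) did not pass.

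Nsdhl encodes the dehydrogenase that follows Msmo1 and releases the oxidised methyl group as carbon dioxide. It showed the largest difference of the 9 in SCA3 mice, with 8.07, 7.99, 8.11, 8.33 and 8.12 under CCI-779, against 8.75, 8.55, 9.07, 9.02 and 9.12 under placebo. The groups stood clear of each other, and Nsdhl was 1.72-fold lower under CCI-779, a difference of -0.78 (SE 0.12, adjusted p = 0.000598). Wt mice given CCI-779 had 8.49, 8.18, 8.48, 8.33 and 8.33, against 8.75, 8.55, 8.40 and 8.97 in wt mice given placebo. The lowest placebo array fell between CCI-779 arrays, and the difference was -0.30 (SE 0.12, adjusted p = 0.112), with a 95% interval of -0.56 to -0.04.

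Hsd17b7 encodes the ketosteroid reductase that completes each round of this demethylation. It was the member that fell in both genotypes. The SCA3 arrays read 7.55, 8.19, 7.91, 8.10 and 8.13 under CCI-779 and 8.32, 8.19, 8.36, 8.60 and 8.38 under placebo, and the groups touched at 8.19. In wt mice the arrays read 8.18, 7.96, 7.97, 8.03 and 8.13 under CCI-779 and 8.43, 8.61, 8.31 and 8.69 under placebo, with no overlap, which was so for 2.42% of all genes in wt. The differences were -0.40 (SE 0.11, adjusted p = 0.023) in SCA3 and -0.46 (SE 0.12, adjusted p = 0.0192) in wt. The SCA3 call was lost without SCA3 placebo replicate 4 (adjusted p = 0.0666), and the wt call without wt placebo replicate 2 (adjusted p = 0.0621) or 4 (adjusted p = 0.0689). Processing mattered too. The SCA3 call was lost without the filter (adjusted p = 0.0504) and with only the arrays compared (adjusted p = 0.059). The wt call was lost with the 3′ to 5′ difference of GAPDH as a covariate (adjusted p = 0.0512). Hsd17b7 rests on 1 probe set of the x_at class, which may match other transcripts, and its remaining 3 probe sets averaged 2.44, 2.17 and 1.96 and were below the filter.

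Ebp encodes the isomerase that moves a double bond within the sterol rings. It had 7.67, 7.34, 7.66, 7.90 and 7.79 in SCA3 mice given CCI-779, against 7.71, 7.62, 8.17, 8.13 and 8.18 in SCA3 mice given placebo. Of the placebo arrays, 3 lay above every CCI-779 array and 2 lay among them. The difference of -0.29 (SE 0.16, adjusted p = 0.23) did not pass, with a 95% interval of -0.63 to 0.04. In wt mice Ebp read 7.66, 7.73, 7.88, 8.03 and 7.62 under CCI-779 and 8.05, 7.69, 7.54 and 8.45 under placebo. These groups overlapped nearly wholly, with a difference of -0.15 (SE 0.17, adjusted p = 0.591).

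Sc5d encodes the desaturase that makes the precursor of the last step. Its arrays read 9.05, 9.53, 9.33, 9.13 and 9.48 in SCA3 mice under CCI-779, against 9.61, 9.40, 9.89, 9.78 and 9.86 under placebo. The lowest placebo array lay within the CCI-779 range. The difference was -0.40 (SE 0.13, adjusted p = 0.0464), close to the threshold, and it passed in 6 of the 19 fits that each left out 1 array (adjusted p between 0.0268 and 0.106). The wt arrays had 8.94, 9.28, 9.34, 9.32 and 9.52 under CCI-779 and 9.67, 9.54, 9.46 and 10.01 under placebo. Only the highest CCI-779 array and the lowest placebo array crossed, and the wt difference of -0.39 (SE 0.14, adjusted p = 0.0718) was nearly as large as that in SCA3. The other tested probe set of Sc5d read -0.24 (adjusted p = 0.395) in SCA3 and 0.18 (adjusted p = 0.573) in wt.

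Dhcr7 encodes the reductase that yields cholesterol itself, and its loss in humans causes Smith-Lemli-Opitz syndrome. In SCA3 mice it stood at 7.44, 7.68, 7.55, 7.44 and 7.62 under CCI-779, against 7.99, 7.54, 8.18, 8.04 and 8.47 under placebo. Of the placebo arrays, 4 lay above all CCI-779 arrays and 1 lay among them. Dhcr7 was 1.41-fold lower, a difference of -0.50 (SE 0.13, adjusted p = 0.017). Wt mice had 7.85, 7.53, 7.71, 7.78 and 7.40 under CCI-779, against 7.76, 7.75, 7.93 and 8.06 under placebo, with overlap and a difference of -0.22 (SE 0.14, adjusted p = 0.304).

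**Figure D2:**
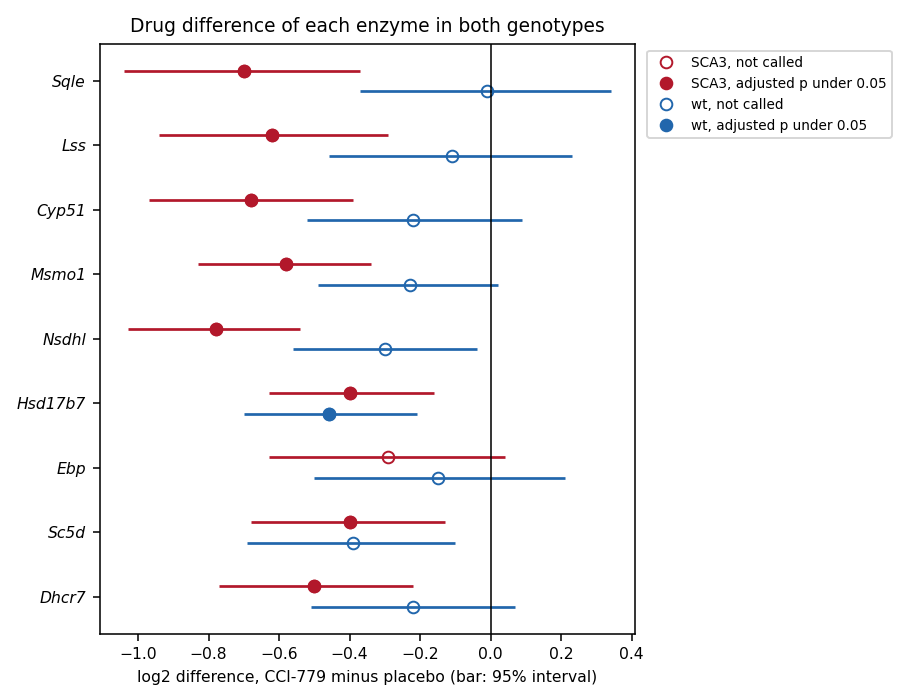
Log2 difference, CCI-779 minus placebo, of each enzyme in SCA3 mice (red) and wt mice (blue), with its 95% interval as a bar, in pathway order from top to bottom. Filled points passed an adjusted p under 0.05. The 8 filled red points run from -0.78 (Nsdhl) to -0.40 (Hsd17b7 and Sc5d), and the single filled blue point is Hsd17b7 at -0.46.

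Averaged over both genotypes, 8 of the 9 fell under CCI-779 and 0 rose, against 8.26% of all genes that fell and 22.0% that rose. The median of the 9 was -0.40, against 0.04 over all genes. Nsdhl (-0.54, SE 0.08, adjusted p = 0.000228) and Hsd17b7 (-0.43, SE 0.08, adjusted p = 0.000985) had the smallest p-values of the 9. Ebp again did not pass, at -0.22 (adjusted p = 0.166), but it passed after quantile normalization again (-0.29, adjusted p = 0.0448) and after centring (-0.30, adjusted p = 0.0387), which makes 9 of 9. Without wt placebo replicate 4, 6 of the 9 passed, and Sqle (adjusted p = 0.0672) and Lss (adjusted p = 0.0543) did not. Sqle also missed the threshold without SCA3 placebo replicate 3 (adjusted p = 0.0509) or 4 (adjusted p = 0.0501). This average uses the same arrays as the comparisons within each genotype and is no separate evidence.

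Whether the drug acted differently in the 2 genotypes was tested with the interaction term, and 0 of the 9 enzymes passed, against 0% of all genes. The median interaction of the 9 was -0.35, against -0.07 over all genes. Of the 9, 8 were negative, a more negative drug difference in SCA3, as were 67.5% of all genes. At an unadjusted p under 0.05 there were 4 of the 9 and 868 of 10454 genes. These 4 were Sqle at -0.69 (95% interval -1.18 to -0.21, adjusted p = 0.557), Lss at -0.50 (adjusted p = 0.642), Nsdhl at -0.48 (adjusted p = 0.582) and Cyp51 at -0.46 (adjusted p = 0.636). Hsd17b7 and Sc5d had interactions of 0.06 (95% interval -0.28 to 0.40) and -0.01 (-0.41 to 0.39). The larger number of calls in SCA3 than in wt is therefore not shown to be a difference between genotypes.

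Under placebo, 0 of the 9 enzymes differed between SCA3 and wt mice after adjustment, and neither did any of the 10454 genes (0%). The median difference of the 9, SCA3 minus wt, was 0.20, against 0.02 over all genes. Of the 9, 8 were positive and 1 was negative, against 39.8% of all genes that were negative. Sqle had the smallest p of the 9, at 0.40 (SE 0.17, unadjusted p = 0.0287, adjusted p = 0.805). An unadjusted p under 0.05 was found for 1 of the 9 and for 556 of 10454 genes. Under CCI-779, 0 of the 9 passed, against 0.0191% of all genes, and the median was -0.13, against -0.04 over all genes. The smallest adjusted p was that of Nsdhl, 0.333, at -0.24, and 0 of the 9 had an unadjusted p under 0.05, against 1892 of 10454 genes. These comparisons share their arrays with those of the drug.

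The order of the 4 group means was the same for 7 of the 9 enzymes, from SCA3 placebo at the top through wt placebo and wt CCI-779 to SCA3 CCI-779 at the bottom. Hsd17b7 had wt placebo above SCA3 placebo (8.51 ± 0.17, n = 4, and 8.37 ± 0.15, n = 5, SD), and Sc5d had its 2 CCI-779 means 0.02 apart. For all 9 both placebo means were above both CCI-779 means. The enzymes varied together over the same arrays, so these are not 9 separate observations. The share of all genes with either order is not given here. Neighbours of the same treatment did not pass any test of genotype. The differences that passed were those between the SCA3 groups for 8 of the 9 and between the wt groups for Hsd17b7. The mean over the 9 enzymes was 8.41 ± 0.09 in SCA3 CCI-779 (n = 5) and 8.96 ± 0.25 in SCA3 placebo (n = 5). It was 8.57 ± 0.08 in wt CCI-779 (n = 5) and 8.80 ± 0.23 in wt placebo (SD, n = 4).

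For most of the enzymes the CCI-779 arrays spread less than the placebo arrays. The SD under CCI-779 was smaller than that under placebo for 7 of the 9 enzymes in SCA3 mice and for 7 of 9 in wt mice, against 38.5% and 46.5% of all genes. Among the placebo arrays, SCA3 placebo replicate 2 was low for the enzymes and wt placebo replicate 4 was high. The deviations of the arrays from their group means went together within the pathway. All 36 pairs of members had a positive correlation over the 19 arrays, with a median r of 0.56, from 0.08 between Lss and Sc5d to 0.90 between Sqle and Nsdhl. In 23 of the 36 pairs r was at least 0.5. The enzymes whose promoters are shown were picked in part because they varied together. Their r was 0.85 between Cyp51 and Msmo1, 0.82 between Msmo1 and Nsdhl and 0.75 between Cyp51 and Nsdhl. Nsdhl and Ebp reached 0.85 too. Lss and Sc5d, the least alike, each have a second tested probe set that differs from the main one.

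The median r of all tested genes with the enzymes' shared profile was 0.15, and 9.55% of the other 10445 genes had an r of at least 0.5. The 8 genes outside the members with the highest r were Gab1 (0.91), Idi1 (0.91), Stard4 (0.89), Yeats4 (0.89), S100a13 (0.88), Cox6a1 (0.88), Ado (0.86) and Cnp (0.86). Idi1 encodes isopentenyl diphosphate isomerase of the mevalonate arm, Stard4 a cholesterol carrier, and Cnp a protein of myelin and oligodendrocytes. Without the 2 arrays farthest from the median of the profile, SCA3 placebo replicate 2 and wt placebo replicate 4, their r was 0.85 for Idi1, 0.88 for Stard4 and 0.71 for Cnp. Arrays share RNA quality and cell make-up across all their genes, so these correlations describe 19 arrays and no regulation.

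The arm before squalene moved alongside. Of its 10 listed genes 7 were tested, with a median of -0.28 under CCI-779 in SCA3 mice. There 4 fell and 0 rose, against 6.09% of all genes that fell and 11.0% that rose. The 4 were Fdps, which makes farnesyl diphosphate (-0.93, SE 0.17, adjusted p = 0.00218), Idi1 (-0.75, adjusted p = 0.0113), Hmgcs1, which makes HMG-CoA (-0.43, adjusted p = 0.0327), and Fdft1, which makes squalene (-0.28, adjusted p = 0.031). In wt mice 1 of 7 fell, Fdps at -0.69 (adjusted p = 0.0213), against 1.64% of all genes, and the list's median was -0.11. Averaged over genotypes 3 of 7 fell, against 8.26% of all genes. These were Fdps (-0.81, adjusted p = 2e-04), Idi1 (-0.53) and Fdft1 (-0.20). Ggps1, which branches off toward longer isoprenoids, read 0.11 in SCA3 and -0.03 in wt and did not pass. Mvd was below the filter.

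The other enzymes after squalene did not follow one direction. Tm7sf2, a sterol reductase that acts after Cyp51, fell averaged over genotypes by 0.27 (SE 0.08, adjusted p = 0.0146) and read -0.23 in SCA3 and -0.30 in wt, neither of which passed. Lbr, a nuclear envelope protein with the same reductase activity, rose in wt by 0.53 (SE 0.11, adjusted p = 0.00776) and read -0.02 (adjusted p = 0.908) in SCA3. Of the genes around SREBP, 8 of 12 were tested, and 2 rose and 0 fell in each genotype. Over all genes 11.0% rose in SCA3 and 11.5% in wt, and 6.09% and 1.64% fell. Srebf2, which encodes SREBP2, rose in SCA3 by 0.60 (SE 0.19, adjusted p = 0.0391) and read 0.32 (adjusted p = 0.311) in wt. Scap, which escorts SREBP to the Golgi, rose by 0.19 (adjusted p = 0.0385) in SCA3 and 0.24 (adjusted p = 0.0236) in wt, and Mbtps1, a protease that cuts SREBP, rose by 0.25 (adjusted p = 0.0341) in wt. Scap in both genotypes and Mbtps1 in wt lost their calls when each array was centred on its median (adjusted p = 0.132, 0.17 and 0.144), with the same direction. Averaged over genotypes Srebf2 (0.46, adjusted p = 0.019), Scap (0.22, adjusted p = 0.00167) and Mbtps1 (0.16, adjusted p = 0.0241) rose, as did 22.0% of all genes. Mbtps1 lost its averaged call under centring (0.08, adjusted p = 0.183). Insig1, a sterol-dependent brake on SREBP, read -0.38 (adjusted p = 0.113) in SCA3 and -0.15 in wt.

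Among 8 of 9 tested genes of cholesterol export and turnover, 2 rose and 1 fell in SCA3 and 2 rose and 0 fell in wt. The shares over all genes were 11.0% higher and 6.09% lower in SCA3, and 11.5% and 1.64% in wt. Abca1, a cholesterol exporter, rose by 0.60 (SE 0.11, adjusted p = 0.00266) in SCA3 and by 0.45 (SE 0.12, adjusted p = 0.025) in wt, the last of which was 0.34 (adjusted p = 0.0855) after centring. Abcg4, another exporter, rose by 0.31 in both (adjusted p = 0.00399 in SCA3 and 0.00815 in wt). Npc2, which binds cholesterol inside lysosomes, fell in SCA3 by 0.38 (adjusted p = 0.0118). Averaged over genotypes Abca1 (0.52, adjusted p = 0.000262) and Abcg4 (0.31, adjusted p = 0.000154) rose and Npc2 (-0.26, adjusted p = 0.00838) fell. In that average 22.0% of all genes rose and 8.26% fell. Of the oxysterol genes 2 of 4 were tested, and 0 passed in either genotype.

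**Figure D3:**
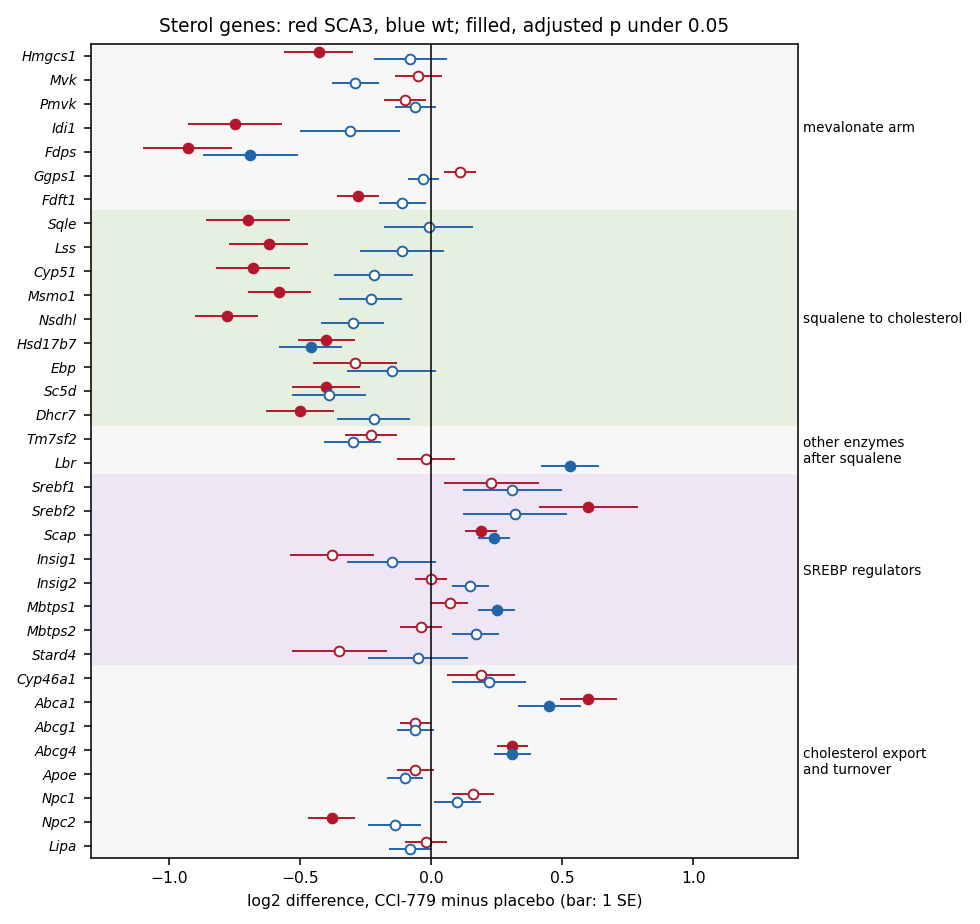
Log2 difference, CCI-779 minus placebo, of tested sterol genes in SCA3 mice (red) and wt mice (blue), without the oxysterol genes. Bars are 1 SE, and filled points passed an adjusted p under 0.05. Shading marks the lists, with the 9 enzymes in green. The filled red points of the mevalonate arm and of the 9 enzymes lie left of 0, from -0.93 (Fdps) to -0.28 (Fdft1). The filled red points of Srebf2, Scap, Abca1 and Abcg4 lie right of 0, and that of Npc2 lies left of 0 at -0.38.

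Some oligodendrocyte and myelin genes also fell in SCA3 mice. Of 12 listed, 11 were tested. In SCA3 mice 5 fell and 0 rose, against 6.09% of all genes that fell and 11.0% that rose. Those 5 were Ugt8a (-0.75), Mal (-0.70), Mobp (-0.70), Cnp (-0.57) and Olig1 (-0.39). The other 6 did not pass, with Cldn11 at -0.32, Mog at -0.28, Mbp at -0.12, Mag at -0.04, Olig2 at 0.14 and Sox10 at 0.24. In wt mice 0 of 11 passed, against 1.64% of all genes that fell and 11.5% that rose. There Ugt8a read -0.40 (adjusted p = 0.0621), Mobp -0.46 (adjusted p = 0.142) and Cnp -0.27 (adjusted p = 0.0712). Averaged over genotypes 5 of 11 fell, against 8.26% of all genes. For the interaction 0 of 11 passed, against 0% of all genes, so no difference between genotypes is shown for this list. The r of single genes with the enzymes' profile ran from 0.02 for Olig2 and 0.13 for Mobp to 0.86 for Cnp. The mean of the 11 was 11.54 ± 0.15 in SCA3 CCI-779 and 11.86 ± 0.20 in SCA3 placebo (SD, n = 5 each), with ranges of 11.36 to 11.75 and 11.55 to 12.08. It was 11.58 ± 0.08 in wt CCI-779 (n = 5) and 11.65 ± 0.14 in wt placebo (n = 4). Over the deviations from group means, the enzymes' mean and this list's mean had r = 0.70 and rho = 0.59 over 19 arrays, and r = 0.46 without the 2 farthest arrays. Within the 9 placebo arrays, which include these 2, r was 0.96, and within the 10 CCI-779 arrays it was -0.10. A high r within placebo arrays was not particular to this list. It was 0.99 for the mevalonate arm, 0.92 for the SREBP genes and 0.90 for astrocyte genes. Within CCI-779 arrays these lists had 0.39, 0.91 and 0.45. The remaining cell type lists ran from 0.44 (choroid plexus) to 0.74 (endothelium) within placebo arrays. Without the 2 farthest arrays astrocyte genes had 0.51 and those of meninges and fibroblasts 0.72. With the oligodendrocyte list's level as a covariate, added after seeing the data, 1 of the 9 enzymes passed in SCA3, Nsdhl. The median difference was then -0.27. The list itself differed between the SCA3 groups, so its level and the drug are partly confounded in that fit.

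**Figure D4:**
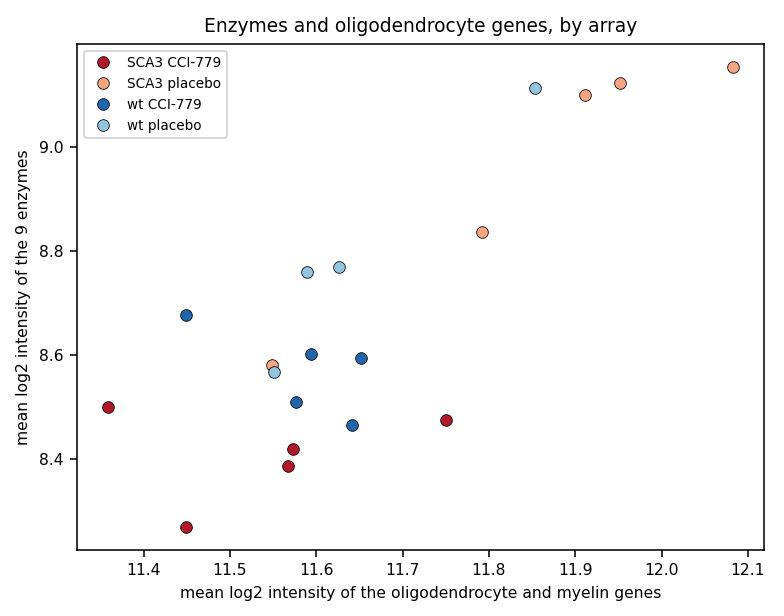
Mean log2 intensity of the 9 enzymes against that of 11 oligodendrocyte and myelin genes, 1 point per array, coloured by group. The placebo arrays line up from low to high on both axes, whereas the CCI-779 arrays of both genotypes lie at or below 8.68 on the vertical axis with no such line.

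Other cell types were compared through their own lists. Microglia genes fell in both genotypes, 3 of 6 tested in SCA3 and 3 of 6 in wt, against 6.09% and 1.64% of all genes. The list's mean was 8.26 ± 0.10 in SCA3 CCI-779 and 8.53 ± 0.05 in SCA3 placebo (SD, n = 5 each). Of 8 astrocyte genes 1 rose in SCA3 and 2 in wt, and of 8 neuron genes 2 rose and 1 fell in each. The share of all genes that rose was 11.0% in SCA3 and 11.5% in wt. In wt the astrocyte gene Slc1a2 lost its call after quantile normalization again (0.18, adjusted p = 0.0524) and after centring (0.07, adjusted p = 0.475), and the neuron gene Eno2 lost its call after centring (0.17, adjusted p = 0.138). Of 4 endothelial and 4 choroid plexus genes 0 passed in either genotype, and of 5 genes of meninges and fibroblasts 2 rose in SCA3 and 1 in wt. All 8 listed neuron genes and all 8 astrocyte genes were above the filter. The part of these cell types in the enzymes' difference was not tested apart from the oligodendrocyte list.

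The hybridisation spike-ins, bacterial transcripts added to every array, also differed with the drug. Their mean log2 intensity was 10.55 ± 0.09 in SCA3 CCI-779 and 11.36 ± 0.18 in SCA3 placebo (SD, n = 5 each), and 10.23 ± 0.26 in wt CCI-779 (n = 5) and 11.13 ± 0.29 in wt placebo (n = 4), with no overlap in either genotype. With their level as a covariate, 0 of the 9 enzymes and 0 of all probe sets passed for the drug in SCA3, while the median of the 9 was -0.64. This step and the drug cannot be told apart. The labelling spike-ins read 4.96 ± 0.25 in SCA3 CCI-779 and 5.71 ± 0.24 in SCA3 placebo (SD, n = 5 each) with no overlap, and 5.07 ± 0.15 in wt CCI-779 (n = 5) and 5.50 ± 0.31 in wt placebo (n = 4) with overlap.

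The GAPDH sign of RNA quality moved with the drug as well, whereas the actin sign overlapped between treatments. For the GAPDH control, log2 at the 3′ end minus log2 at the 5′ end was -0.35 ± 0.06 in SCA3 CCI-779 and -0.52 ± 0.03 in SCA3 placebo (SD, n = 5 each). It was -0.28 ± 0.32 in wt CCI-779 (n = 5) and -0.54 ± 0.04 in wt placebo (n = 4), and the groups did not overlap in either genotype. With the GAPDH difference as a covariate 7 of the 9 enzymes passed in SCA3, with a median of -0.59, and 0 passed in wt, with a median of -0.25. For the actin control the same measure was 1.277 in SCA3 CCI-779 and 1.295 in SCA3 placebo. It was 1.596 in wt CCI-779, with replicate 1 highest at 2.55, and 1.278 in wt placebo, and treatments overlapped in both genotypes. The arrays SCA3 CCI-779 replicates 2 and 5 and wt CCI-779 replicate 1 stood apart on the main axes of variation. Without the first 2 of these, 6 of the 9 enzymes fell in SCA3 with a median of -0.57, and Sqle (adjusted p = 0.0791) and Lss (adjusted p = 0.0655) no longer passed.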

How the data were processed

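Values were deposited by the authors as 1 table of linear intensity for 45101 probe sets on 19 arrays, and per the submitters' processing notes GCRMA produced them. This method adjusts for background by sequence, scales the arrays to each other and combines the probes of a set, and the sources used here give no version. Deposited intensities were turned into log2 without a pseudocount. The 64 control probe sets were left out of tests, and 20473 probe sets with a mean log2 of at least 4 were kept. Genes were named from the platform annotation, by probe sets with 1 symbol.

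limma 3.58.1 in R 4.3.3 was fitted to 4 group means over all 19 arrays, with Benjamini-Hochberg adjustment across all tested probe sets, a threshold of 0.05 and two-sided tests. A difference is on the log2 scale, with the moderated SE, and an SD is between arrays of a group. The script was checked on simulated data. Arrays give no read depth, and their number limits precision. The wt CCI-779 array numbered 1 here has no number in GEO's labels.

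The members and lists were chosen with earlier results of these data known. All members, Tm7sf2 and Lbr were named whatever their values, with the called genes of each list by smallest p, up to 4 for the average over genotypes, and the 8 genes most like the members. Other list genes in the text were chosen after their values were seen. Alternatives covered the filter, scaling, variance model, arrays in the fit, probe sets of a gene, replicate number as a block and left-out arrays. Spike-in level, GAPDH 3' to 5' difference and oligodendrocyte level as covariates were added after seeing the data.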

Additional observations from a re-analysis of the deposited data

Results flagged for a closer look

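Sqle on wt CCI-779 replicate 1 was at a log2 intensity of 8.89, above the other 4 arrays of its group, which lay between 8.59 and 8.66. Its gap to the nearest array was 0.76 of the group's range, over the limit of 0.71 for 5 samples. Chance alone marks about 1 in 20 groups, and 48 groups of member probe sets were looked at. Without this array the wt difference of Sqle was -0.07, against -0.01 with it, and it did not pass either way.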

How the results depend on the processing

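The count of 8 falling enzymes in SCA3 stayed between 6 and 8 under other filters, scalings, variance models and choices of arrays and probe sets, with medians from -0.68 to -0.49. It was 0 with the spike-in level and 1 with the oligodendrocyte level as a covariate. In wt, the count of 1 was 3 after quantile normalization again and after centring, 2 with the mean of a gene's tested probe sets, 0 with the spike-in level, 0 with the GAPDH difference and 2 with the oligodendrocyte level. It was 0 without wt placebo replicate 2 or 4 and 2 without wt CCI-779 replicate 5. The averaged count of 8 was 0 with the spike-in level and 3 with the oligodendrocyte level, 6 to 8 with single arrays left out, and 9 after quantile normalization again and after centring. Both genotype comparisons and the interaction kept 0 of 9 in all alternatives.

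Same-numbered arrays correlated between -0.129 and 0.29 in SCA3 and between -0.104 and 0.234 in wt. So few values, without differently numbered arrays beside them, cannot settle whether the numbers pair the samples. The main fit treated the arrays as unpaired. With the replicate block 8 of 9 passed in SCA3 and 2 in wt.

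Centring moved the wt median of all probe sets to -0.05, against 0.05 before. The share of drug calls that were higher was 44.7% in SCA3 and 45.2% in wt after centring, against 67.4% and 82.2% before. Called probe sets in SCA3 numbered 3107, 1956 without SCA3 CCI-779 replicate 2, 1203 without replicates 2 and 5 and 1736 with the oligodendrocyte level, and in wt 2435, 1584 without the filter, 1364 with only the arrays compared, 1343 to 1355 without wt placebo replicate 2, 3 or 4 and 770 with the GAPDH difference. Averaged, 5886 became 3652 with the GAPDH difference. All 3 were 0 with the spike-in level.

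Some uncalled differences changed sign and stayed uncalled. With the oligodendrocyte level Ebp was 0.04 and Sqle 0.04 for the drug in SCA3 and wt, Ebp -0.18, Sc5d -0.21 and Dhcr7 -0.03 for genotype under placebo, and Ebp 0.11 and Sc5d 0.29 for the interaction. The block gave Sc5d -0.01 under placebo and 0.04 for the interaction, and averaging probe sets gave Lss 0.01 and Sc5d -0.06 for genotype under CCI-779. There Sc5d was -0.11 without 2 arrays, -0.20 without 3 and -0.02 with the GAPDH difference, and Ebp 0.02 with the spike-in level. Interactions of Sc5d were 0.05 after quantile normalization, 0.04 after centring and 0.01 with the spike-in level, and those of Hsd17b7 -0.06 without 2 arrays and -0.03 without 3. With single arrays left out, ranges were -0.13 to 0.13 for Sqle and -0.28 to 0.02 for Ebp in wt, -0.10 to 0.20 for Ebp and -0.04 to 0.15 for Sc5d under placebo, -0.13 to 0.03 for Hsd17b7 and -0.06 to 0.09 for Sc5d under CCI-779, and -0.12 to 0.06 for the Sc5d interaction. The causes were not tested.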
